A study of Homo sapiens with 9 samples.

Results

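The HLA region lies on the short arm of chromosome 6, and the regions described here are the 1 kb bins from 28500001 to 33500000 of that chromosome (hg19 build) with all bins of the chromosome 6 haplotype contigs of the same build. They were defined by position and by contig name and not by a read count. Earlier results of these data were known when they were chosen. The interval holds 5000 bins and the 7 contigs hold 33089, which gives 38089 of the 3137207 bins of each table. The contigs are alternative assemblies of the region from single haplotypes, named APD, COX, DBB, MANN, MCF, QBL and SSTO.

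DNA made during a pulse of the thymidine analogue EdU was captured on streptavidin from 2 human lines and read from one end for 50 bases. RPE1 cells are retinal pigment epithelium kept growing by telomerase, and HCT116 cells come from a colorectal carcinoma. Growing cells of both lines were sorted into early, mid and late S phase, in 2 sets for RPE1 and 1 set for HCT116, with no other treatment or genotype given. The count columns bear no fraction name, so the 3 libraries of a set are called A, B and C by their place in the table, and a letter stands for no fraction. The labels leave unsaid if separate cultures gave the RPE1 sets, so the spread between them may be technical. The HCT116 labels give replicate number 2 to the mid and late samples and no number to the early one.

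The region carries the genes of the major histocompatibility complex. Class I genes such as HLA-B and HLA-C encode the heavy chains that present peptides to cytotoxic T cells, class III holds complement genes (C2, CFB, C4A, C4B) and the cytokine genes TNF, LTA and LTB, and class II holds the DR, DQ and DP genes, which present peptides to helper T cells. Haplotypes differ from one another by many single bases and, in the DR part, in which DRB genes they carry. A reference that holds several haplotypes therefore offers a short read several near-identical places to align, and the handling of such reads is not given in the sources used. In the RefSeq table of the GRCh38.p14 build, the class I stretch from HLA-F to MICB held 139 genes (49 protein-coding), the class III stretch from NFKBIL1 to NOTCH4 held 81 (56 protein-coding) and the class II stretch from BTNL2 to HLA-DPB1 held 33 (19 protein-coding). No hg19 annotation was used here, so no gene is placed on a bin.

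How far copies within the region can be told apart by a read of 50 bases was looked at in the 250 bases upstream of the start of 34 genes, of which 29 are in the RefSeq promoter table (GRCh38.p14). Each stretch contains 201 runs of 50 bases, and 24 of the 29 genes shared none of these runs, on either strand, with another of the 35116 listed promoters. HLA-DRB1 and HLA-DRB5, which encode beta chains of the DR molecule, shared 11 of the 201 runs with each other. The remaining 3 genes were C2 and EHMT2, which shared 35 runs with each other, and HSPA1A, which shared 192 runs with HSPA1L, and both of these pairs have overlapping promoter stretches on opposite strands. The DR pair is shown because it is the only pair of separate promoters on the list with such a run. Each is written 5′ to 3′ on the strand of the gene, and the capitals mark their longest shared run, of 60 bases.
HLA-DRB1: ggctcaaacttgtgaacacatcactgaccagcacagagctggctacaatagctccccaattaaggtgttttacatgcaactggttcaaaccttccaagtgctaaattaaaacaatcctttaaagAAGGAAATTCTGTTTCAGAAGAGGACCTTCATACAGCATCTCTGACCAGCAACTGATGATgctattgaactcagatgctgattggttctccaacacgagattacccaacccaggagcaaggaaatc
HLA-DRB5: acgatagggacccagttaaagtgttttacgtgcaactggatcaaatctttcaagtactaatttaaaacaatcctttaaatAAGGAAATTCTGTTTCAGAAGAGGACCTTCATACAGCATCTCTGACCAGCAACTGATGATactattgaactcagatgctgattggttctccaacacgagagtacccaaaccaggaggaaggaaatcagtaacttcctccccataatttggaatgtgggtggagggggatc
A read that starts in one of 11 positions of these 60 bases would match both genes. HLA-B and HLA-C, which encode class I heavy chains, are shown for contrast, because their longest shared run (capitals) is 25 bases and none of their 201 runs of 50 bases is shared.
HLA-B: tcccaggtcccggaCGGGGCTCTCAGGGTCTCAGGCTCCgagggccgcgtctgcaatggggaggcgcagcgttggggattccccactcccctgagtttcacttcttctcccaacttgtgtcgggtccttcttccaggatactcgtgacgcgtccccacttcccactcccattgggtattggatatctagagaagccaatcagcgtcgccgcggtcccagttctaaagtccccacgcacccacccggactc
HLA-C: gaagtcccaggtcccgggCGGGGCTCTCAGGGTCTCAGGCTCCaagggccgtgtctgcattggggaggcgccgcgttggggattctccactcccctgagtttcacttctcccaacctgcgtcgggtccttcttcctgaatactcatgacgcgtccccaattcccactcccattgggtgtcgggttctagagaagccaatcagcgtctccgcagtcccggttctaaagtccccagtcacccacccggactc
This comparison is within the primary assembly of GRCh38.p14. The sequences of the hg19 contigs were not used here, so the sharing between a contig and chromosome 6 was not counted base by base.

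The 9 libraries held 6170299 to 22930078 reads, of which 3141 to 16792 fell in the interval and 10758 to 77380 on the contigs. Library shares were taken after the libraries of a set were scaled to equal totals, so that 33.3% is an even part. Libraries in the same place in the table ran together over the 28509 of 30376 windows of 100 kb on the autosomes and chromosome X that had at least 100 reads in every set. Between the RPE1 sets the correlation across windows was 0.990 for library A and 0.981 for library C, and between RPE1 and HCT116 it was 0.840 to 0.847 for A and 0.765 to 0.768 for C. For library B it was 0.685 and 0.445 to 0.478. These values are descriptions across windows, which share libraries and are not replicates. An exact permutation test of 2 RPE1 sets against 1 HCT116 set cannot reach a p of 0.05, and no test was run. The replicate error throughout is the spread of the RPE1 pair of sets. Intervals on shares are exact Clopper-Pearson 95% intervals of read counts carried through the scaling. The mix of the other libraries was held at its observed value, and the intervals cover counting error only. The reads carry no molecular identifiers.

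Read density in the interval was far below that beside it in all 3 sets. The first RPE1 set had 3.61 reads per kb in the interval, the second had 6.46 and HCT116 had 3.28, and the 5 Mb on each side held 12.3, 20.9 and 9.77. Set to the flanks (flanks = 1, here called the level), the interval was at 0.293, 0.309 and 0.336, with an RPE1 mean of 0.301 ± 0.0112 (SD, n = 2 sets). The HCT116 level was above both RPE1 sets, by more than the RPE1 sets differed. The median 1 kb bin held 3, 5 and 2 reads in the interval against 11, 19 and 9 in the flanks. Bins without a read made up 13.6%, 3.54% and 14.6% of the interval, and 6, 0 and 23 of the 10000 flank bins were empty. The low density was spread over the interval and was not set by a few empty stretches, since 5.2%, 4.2% and 7.96% of its bins reached the median flank bin. In windows of 100 kb, 45 of 50 had a level below 0.5 in every set. Of the 28509 autosome and X windows with at least 100 reads in every set, 0.47% did. All 50 interval windows met that minimum, which leaves windows of the lowest density out of the background.

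The contigs held more reads than the interval fell short of. For RPE1 set 1 the contigs held 84247 reads, for RPE1 set 2 150403 and for HCT116 81425, or 0.235%, 0.271% and 0.296% of all reads of the set. When they were added to the interval's own reads and the sum was divided by the length of the interval, the level was 1.66, 1.75 and 2.00, with an RPE1 mean of 1.70 ± 0.0605 (SD, n = 2 sets). The sum therefore exceeded the flanks in all 3 sets, and the contigs supplied 82.4%, 82.3% and 83.2% of it. Counted per kb of contig, their level was 0.207, 0.217 and 0.252, below that of the interval in each set. Reads from the region are thus present in the tables under 8 names, with the chromosome 6 name holding fewer than 1 in 5 of them. Whether the excess over the flanks comes from counting a read at several places was not tested.

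The level fell over several windows at each end of the interval. From 28500001 to 28600000 RPE1 set 1 was at a level of 0.615, RPE1 set 2 at 0.603 and HCT116 at 0.798, and in the next window it was 0.489, 0.552 and 0.720. From 28700001 to 28800000 it had fallen to 0.203, 0.270 and 0.392. At the other end, the window from 33200001 was at 0.345, 0.380 and 0.387, that from 33300001 at 0.604, 0.601 and 0.590, and that from 33400001 to 33500000 at 0.986, 0.996 and 0.982. The last window thus stood at the density of the flanks in every set, and the 2 windows at each border were the highest 4 of the interval by RPE1 mean. The fifth highest lay inside, from 32500001 to 32600000 in class II, at 0.511 and 0.505 in RPE1 and 0.168 in HCT116. The lowest by RPE1 mean was from 32700001 to 32800000, also in class II, at 0.107 and 0.159 in RPE1 and 0.197 in HCT116. The other low windows began at 29800001, 33000001, 29900001 and 29400001, with RPE1 means of 0.137, 0.157, 0.160 and 0.163 and HCT116 levels of 0.148, 0.197, 0.239 and 0.221.

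**Figure D1:**
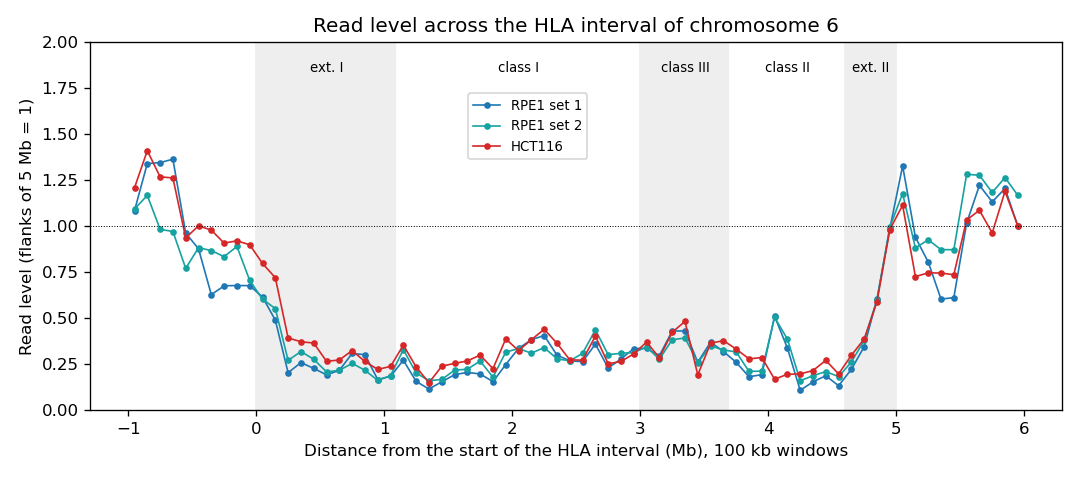
Reads in 100 kb windows, divided by the mean density of the 5 Mb on each side of the HLA interval (y axis, flanks = 1), against distance from the start of the interval in Mb (x axis), with 1 point per window for each of 3 sets. The level fell below 0.5 in all sets in 45 of the 50 windows between 0 and 5 Mb, and near 4 Mb the RPE1 sets rose to about 0.5 while HCT116 stayed at 0.168.

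Sections of the region, cut at approximate textbook borders, kept much the same low level. The extended class I stretch (28500001 to 29600000) had levels of 0.287 and 0.297 in RPE1 and 0.385 in HCT116. Class I (29600001 to 31500000) was at 0.255, 0.277 and 0.299, class III (31500001 to 32200000) at 0.349, 0.333 and 0.356, and class II (32200001 to 33100000) at 0.229, 0.263 and 0.237. The extended class II stretch (33100001 to 33500000) was higher, at 0.539, 0.559 and 0.564. Class II was the lowest section in all 3 sets. HCT116 over the RPE1 mean was 1.32 in extended class I, 1.13 in class I, 1.05 in class III, 0.965 in class II and 1.03 in extended class II, so the ratio was highest on the class I side. Outside the interval the ratio ran the same way, from 1.08 to 1.31 over the 10 windows before it (median 1.13) and from 0.797 to 1.01 over the 10 windows after it (median 0.894).

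In RPE1 the leading library changed along the region, with library A leading in class I, class III and extended class II, and library C in much of extended class I. Library A held 59.1% of the scaled reads of class I in the first RPE1 set and 49.1% in the second, 70.2% and 58.8% in class III, and 63.8% and 57.9% in extended class II. In extended class I it held 31.5% and 24.1%, and in class II 38.0% and 32.5%. Both RPE1 sets thus had the same order of sections for library A, with class III highest and extended class I lowest, although set 2 was lower in every section. Library C ran the other way, at 35.3% and 38.7% in extended class I, 21.0% and 29.6% in class II, 7.59% and 24.1% in class I, 4.80% and 24.2% in class III and 4.80% and 22.4% in extended class II. The RPE1 sets differed by at least 10 points of library C share in 39 of 50 windows, against 39.8% of all windows, so the level of that share in set 1 and set 2 is not interchangeable here. Its shape along the region was shared, with a correlation of 0.940 across the 50 windows.

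In HCT116 library C was nearly level over the same sections. Library A held 36.6% of extended class I, 54.6% of class I, 56.3% of class III, 55.1% of class II and 56.2% of extended class II. Library C held 19.2%, 18.1%, 18.5%, 18.5% and 18.2% in the same order, against 19.6% in the flanks. No section stood out by library C in HCT116, and only extended class I stood out by library A. Across the 50 windows, the correlation of the library C share with HCT116 was 0.313 for RPE1 set 1 and 0.319 for RPE1 set 2, and that of library A was 0.727 and 0.750.

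**Figure D2:**
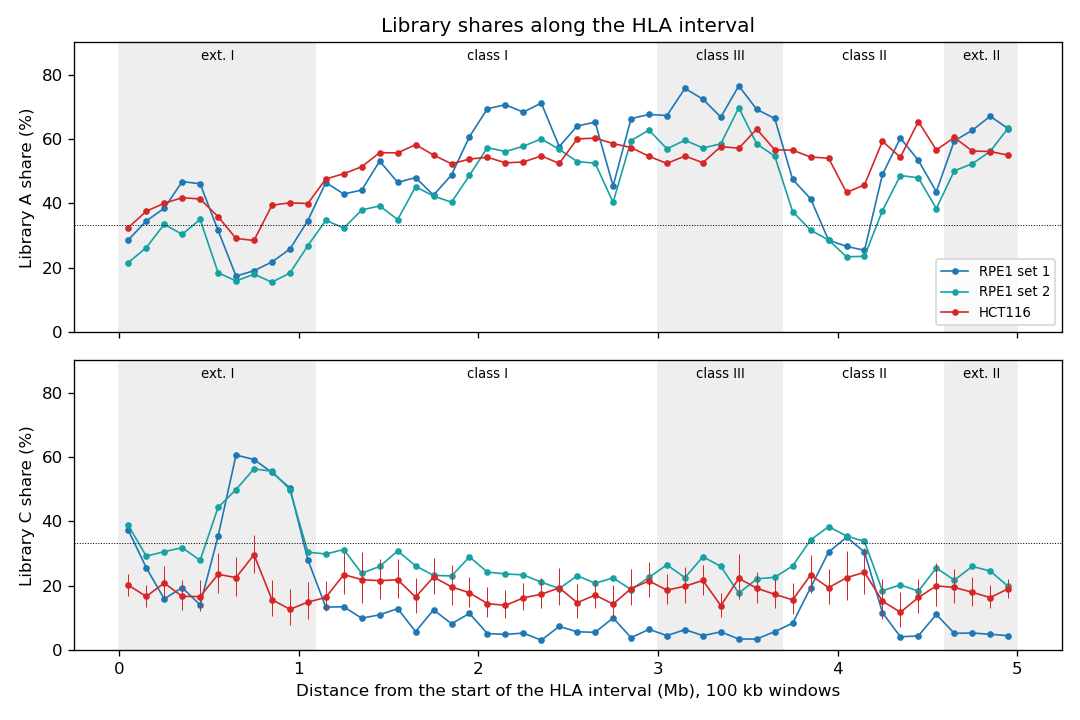
Share of library A (top) and library C (bottom) in the scaled reads of a set, in percent, for each 100 kb window (1 point) against distance from the start of the HLA interval in Mb; bars on HCT116 are 95% intervals for counting error, and the dotted line is an even part of 33.3%. Both RPE1 sets peak in library C between 0.5 and 1 Mb, near 60.6% and 56.3% at their highest, where HCT116 stays between 12.7% and 29.6%.

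For library C the lines differed most in extended class I, where HCT116 had a smaller share than either RPE1 set. Its share was 19.2% (interval 17.8% to 20.6%) against 35.3% and 38.7% in RPE1, so that HCT116 was -17.8 points from the RPE1 mean, whose SD was 2.35 (n = 2 sets). Libraries A and B made up the difference, with 36.6% of A and 44.3% of B in HCT116 against 27.8% ± 5.22 and 35.2% ± 2.87 in RPE1. In 7 of its 11 windows HCT116 was at least 10 points below both RPE1 sets, against 17.2% of autosome and X windows. The same held for 7 of the 10 windows in the 1 Mb before the interval and for 0 of the 10 in the 1 Mb after it, so the difference did not begin at the border. In the window from 27700001 to 27800000, outside the interval, library C held 52.1% and 40.7% in RPE1 and 16.2% in HCT116.

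The largest run of such windows covered 600 kb, from 29000001 to 29600000. There library C held 49.3% and 48.4% in the RPE1 sets, with a mean of 48.8% ± 0.633 (SD, n = 2 sets), and 20.6% in HCT116 (interval 18.3% to 23.1%). These shares rest on 1682, 2599 and 1547 reads. Summed over the run the RPE1 sets agreed closely in library C, in contrast to class I and class III, but not in every window. From 29000001 to 29100000 set 1 had 35.4% and set 2 had 44.3%, and from 29100001 to 29200000 they had 60.6% and 49.9%. The small SD of the run thus understates the spread of its windows. The window from 29300001 to 29400000 had the largest difference, with 55.2%, 55.6% and 15.7%, which is -39.7 points against the RPE1 mean. It was followed by the windows from 29400001 (50.4%, 49.8% and 12.7%; -37.5 points), 29100001 (60.6%, 49.9% and 22.5%; -32.7 points) and 29200001 (59.2%, 56.3% and 29.6%; -28.1 points). The fifth was the first window of the interval, from 28500001, with 37.2%, 38.7% and 20.2%, a difference of -17.8 points.

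Class II was the other stretch where the lines parted, and there the change lay in libraries A and B. For library A, class II had 38.0% (RPE1 set 1), 32.5% (RPE1 set 2) and, in HCT116, 55.1% (interval 53.0% to 57.3%), which is 19.9 points above the RPE1 mean of 35.2% ± 3.86 (SD, n = 2 sets). Library B held 41.1%, 37.9% and 26.3%. For library C the values were 21.0%, 29.6% and 18.5%, and the difference of -6.77 points was about the size of the RPE1 SD of 6.12. The contrast was sharpest from 32300001 to 32800000, a run of 500 kb in which library A held 30.5%, 26.8% and 52.1%. Inside it, from 32400001 to 32600000, library C held 33.8%, 36.3% and 20.5%, on 866, 1498 and 443 reads.

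Class I, class III and extended class II gave no line difference in library C beyond the RPE1 spread. In each of them the HCT116 share lay between the RPE1 sets. HCT116 minus the RPE1 mean was 2.21 points in class I, where the RPE1 SD was 11.7, 4.05 points in class III, where it was 13.7, and 4.62 points in extended class II, where it was 12.4. The sign depends on the RPE1 set used: without RPE1 set 1 the differences were -6.05, -5.65 and -4.17 points, and without RPE1 set 2 they were 10.5, 13.7 and 13.4. Over the whole interval the difference was -2.79 points, or -9.58 and 4.00 with set 1 or set 2 left out.

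Counted over all 50 windows, HCT116 was at least 10 points below both RPE1 sets in library C in 9 windows (18%), against the same 17.2% of all autosome and X windows, and above both in 0, against 7.67%. The share below is near the genome's own, so the count by itself is not a result about the HLA interval. Library A was at least 10 points above both RPE1 sets in 13 windows (26%), against 11.7%, and below both in 1, against 11.9%. Of the 13 windows, 7 lay in class II, 3 in class I and 3 in extended class I. The only window below was in class III, from 31900001 to 32000000, with 76.5% and 69.7% in RPE1 and 57.1% in HCT116. Library C exceeded library A in both RPE1 sets and fell short of it in HCT116 in 8 windows, against 11% of all windows, and the opposite was seen in 0, against 4.38%. Without RPE1 set 1 the count of windows below in library C was 17 (34%), against 19% of all windows under the same rule, and the count above was 0, against 10.6%. Without RPE1 set 2 the count below was 9 (18%), against 25%, and the count above was 23 (46%), against 36.2%. On percentiles of each set's own windows, HCT116 was 25 or more percentiles below both RPE1 sets in 5 windows, against 8.34%, and above in 1, against 6.96%.

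Read level also set 1 stretch of class II apart. From 32500001 to 32700000 the RPE1 sets had 1044 and 1862 reads and HCT116 had 354. The level was 0.424, 0.445 and 0.181, so HCT116 was at 0.417 times the RPE1 mean of 0.435 ± 0.0150 (SD, n = 2 sets). These were the only 2 of 50 interval windows in which HCT116 was at least 1.5 times below both RPE1 sets, against 2.46% of all windows, and 1 was at least 2 times below, against 0.186%. No interval window was at least 1.5 times above both, against 1.28%, although leaving out RPE1 set 2 gave 8 (16%), against 7.38% of all windows. The library shares of the stretch differed too, with library A at 26.1%, 23.5% and 44.7%. In the RefSeq gene order the DR and DQ genes, from HLA-DRA to HLA-DQB2, form a block of 16 genes within class II, and which of them fall in this stretch was not examined.

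The 7 contigs took unequal parts of the contig reads, and the parts differed by little between the 3 sets. COX took the most, at 19.4% and 19.3% in RPE1 and 19.6% in HCT116, and APD the least, at 7.34%, 7.52% and 7.70%. QBL held 15.2% and 15.4% in RPE1 and 16.1% in HCT116. DBB held 15.3%, 15.2% and 14.7% in the same order, and SSTO 14.9%, 15.0% and 14.2%. In all 7 contigs the HCT116 part lay outside the RPE1 pair by more than the RPE1 sets differed, furthest in QBL, SSTO and DBB. The contigs also differed in how many of their bins held a read. In APD 2292 of its 4623 bins (49.6%) were empty in all 9 libraries, against 9 of 4796 in COX, and the other contigs had 329 (QBL) to 1047 (MCF). The longest empty run in APD was 401 kb. Gaps in the contig assemblies were not read here, so a gap and a stretch without reads cannot be told apart, and the level per kb of a whole contig counts both. Over bins with a read in any library, the RPE1 mean level ran from 0.224 ± 0.0116 in APD to 0.284 ± 0.0089 in COX (SD, n = 2 sets), with the other contigs between 0.242 and 0.257. Haplotype contigs of other chromosomes stood higher per kb, at 0.707 ± 0.0239 in RPE1 and 0.777 in HCT116 for the contig of chromosome 17, and 0.531 ± 0.0929 and 0.585 for that of chromosome 4, of which hg19 has 1 each.

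Contig reads, counted as RPM (reads per 1e6 reads of the set), were higher in HCT116 than in RPE1 for all 7. The value for APD was 172 in the first RPE1 set, 204 in the second and 228 in HCT116. COX had 456, 524 and 579 RPM, and QBL had 356, 417 and 476 RPM. The ratio of HCT116 to the RPE1 mean was highest in QBL, at 1.24 ± 0.137, and lowest in SSTO, at 1.12 ± 0.118 (SD from the spread of the RPE1 sets, n = 2). Against RPE1 set 1 the ratio was 1.34 in QBL and 1.21 in DBB, and against RPE1 set 2 the 7 ratios ran from 1.03 to 1.14. From highest to lowest, the order by this ratio was QBL, APD, MANN, COX, MCF, DBB and SSTO against each RPE1 set. All 7 ratios were lower against RPE1 set 2, and the differences between contigs were not tested. The contig of chromosome 17 had a ratio of 1.09 ± 0.110.

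**Figure D3:**
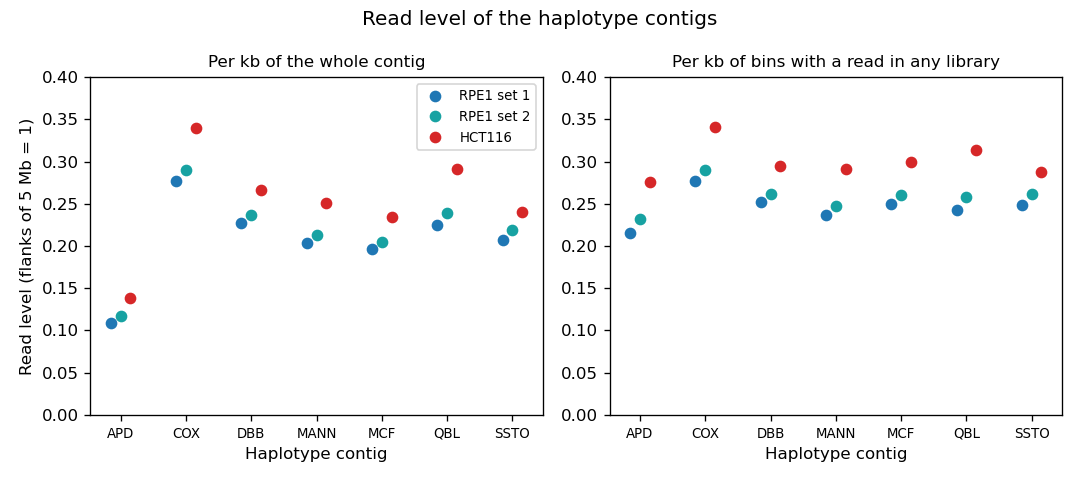
Read level of the 7 chromosome 6 haplotype contigs (y axis, flanks of the HLA interval = 1), per kb of the whole contig (left) and per kb of bins with a read in any library (right), with 1 point per set. HCT116 lies above both RPE1 sets in each contig, and the low level of APD on the left, 0.139 in HCT116, rises to 0.276 on the right.

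HCT116 stood well above RPE1 in read level in one part of COX and QBL, in 1 window of MCF, and in APD only in windows with few reads. The difference from the other contigs was not tested. Of 335 contig windows of 100 kb, 296 had at least 100 reads in every set, and in 9 of them HCT116 was at least 1.5 times above both RPE1 sets, against 1.28% of autosome and X windows. COX and QBL had 4 each and MCF had 1, and those of QBL from 1600001 and from 2500001 lay apart from the others. The MCF window, from 3900001 to 4000000, had 102 and 201 reads in the RPE1 sets and 172 in HCT116, or 1.97 times the RPE1 mean level. HCT116 was below in 1, in DBB from 3200001 to 3300000, against 2.46%. In 3 windows HCT116 was at least 2 times above, against 0.0246%. The largest was in QBL from 3700001 to 3800000, with 118 and 210 reads in the RPE1 sets and 443 in HCT116, a level 4.62 times the RPE1 mean. In COX, from 3900001 to 4000000, the reads were 183, 303 and 462, or 3.22 times, and in the next window 206, 381 and 434, or 2.54 times. No window with enough reads in APD, DBB, MANN or SSTO was above. In APD 2 windows under the minimum of reads were above too, from 3700001 to 3800000 with 89, 142 and 184 reads (2.69 times) and from 3900001 to 4000000 with 69, 131 and 150 reads (2.59 times). Without RPE1 set 2 the count above was 45 (15.2%), against 7.38% of autosome and X windows, and without RPE1 set 1 it was 10 (3.38%), against 3.02%. The count below was 2 in both cases, against 10.7% without set 2 and 2.93% without set 1.

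Around these windows HCT116 was above the RPE1 mean in all 7 contigs, by unequal amounts. Between 3700001 and 4100000 from the contig start, a stretch chosen after its values were seen, COX had 904 and 1605 reads in the RPE1 sets and 1514 in HCT116. Its level was 0.188 ± 0.00586 in RPE1 (SD, n = 2 sets) and 0.388 in HCT116, a ratio of 2.06. QBL had 642, 1289 and 1151 reads and a ratio of 2.07, and APD had 299, 607 and 509 reads and a ratio of 1.96. In the remaining contigs the ratio was 1.05 (MANN), 1.07 (SSTO), 1.14 (DBB) and 1.21 (MCF). Contig positions are counted from each contig's own first base, and the contigs differ in length, so equal distances need not be equal places in the region.

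The shares of the libraries on the contigs repeated those of chromosome 6. All contigs together had library A at 53.4% and 42.9% in RPE1 and 51.3% in HCT116, and library C at 13.6%, 28.3% and 18.6%, against 14.5%, 28.1% and 18.5% for library C in the interval. The contigs were alike in this, with library C between 17.4% and 20.5% in HCT116 and between 11.2% and 15.1% in RPE1 set 1. With the contigs summed by distance from their start, library C of RPE1 rose to 54.0% and 54.4% at 0.6 Mb, where HCT116 had 22.8%. A second and lower rise came at 3.8 Mb, with 29.7% and 39.7% in RPE1 and 28.0% in HCT116. HCT116 was at least 10 points below both RPE1 sets in library C in 6 of these 46 distance windows, all between 0.3 and 0.9 Mb. Of autosome and X windows, 17.2% were below. It was above both in 0, against 7.67%. The share below was under the genome's own, so the count by itself is not a result about the contigs. Of 5 shifts from 0 to 400 kb, 200 kb gave the highest correlation in each set. At that shift the summed contig profile of library C correlated with that of chromosome 6 with r of 0.961 for RPE1 set 1, 0.938 for set 2 and 0.460 for HCT116, over 46 windows that share libraries with the interval, and without a shift r was 0.777, 0.717 and 0.366. Window by window, HCT116 was below both RPE1 sets in library C in 38 of the 296 contig windows (12.8%) and above in 0, against 17.2% and 7.67% of autosome and X windows. By contig these were 9 in COX, 7 in MCF, 6 in DBB, 6 in MANN, 4 in SSTO, 3 in QBL and 3 in APD. Near-identical contigs can receive the same reads or reads of the same place, so these windows are not independent of each other or of the interval.

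**Figure D4:**
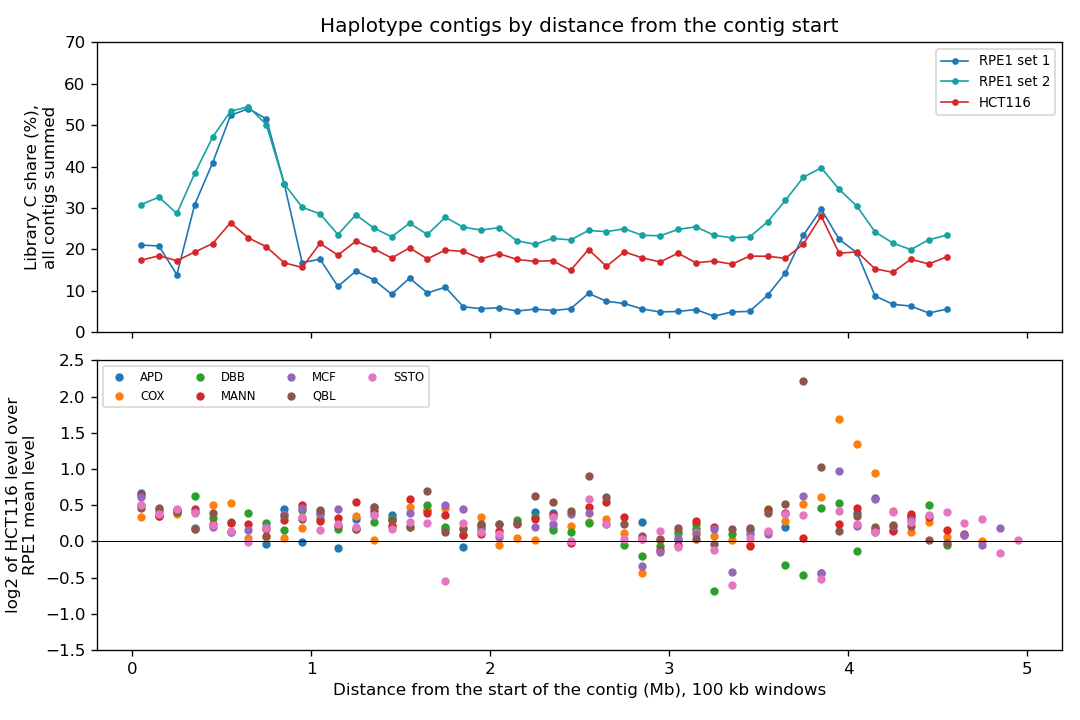
Top, share of library C in percent for the contigs summed in 100 kb windows of distance from the contig start, with 1 line per set; bottom, log2 of the HCT116 level over the RPE1 mean level for each contig window with at least 100 reads in every set, coloured by contig. RPE1 peaks near 54% at 0.6 Mb and HCT116 does not, and the QBL and COX points stand highest between 3.7 and 4.2 Mb.

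Single bins with many reads were few. No bin of the interval or of the contigs exceeded 10 times the autosomal median bin in any set, and the flanks held 2 such bins. The highest bin of the interval, from 31818001 to 31819000 in class III, had 27 and 48 reads in the RPE1 sets and 28 in HCT116, a level of 2.19, 2.30 and 2.87. The highest bin of all contigs was in MANN, from 3161001 to 3162000, with 46, 65 and 48 reads. In MCF, COX, QBL and DBB the highest bin also lay between 3.103 and 3.327 Mb from the contig start, and in APD and SSTO it lay elsewhere, at 3.996 and 0.281 Mb.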

How the data were processed

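EdU-marked DNA from 9 libraries of RPE1 and HCT116 was analysed. The authors deposited tables of raw read counts per 1 kb bin, with 3 count columns for each of 3 sets and no header. The build was hg19 and the tools were SAMtools 1.2, Bowtie2 and bedtools 2.25, per the submitters' processing notes, which assign them no role. The table names in the labels point to removal of duplicates. How it was done and how reads with several matching places were counted are not given in these sources. If such a read is placed at random, all copies of the region lose reads, and if it is counted at each place, the sum over the copies gains.

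Columns bear no fraction names, so all measures that need a named fraction were left out. Levels are reads per kb over those of the 5 Mb on each side. Shares use libraries scaled to equal totals. Windows of 100 kb needed 100 reads in every set. A window differed where HCT116 lay at least 10 points of share, or 1.5 times in level, outside both RPE1 sets, and the same rule over autosomes and chromosome X gave the background. The windows named are the 5 highest and 5 lowest by RPE1 level and the 5 with the largest difference in library C in each direction, with all contigs and sections. The member regions and lists were chosen with earlier results of these data known, and the level rule for windows and the stretch of the contigs were chosen after their values were seen. The 34 genes fixed for the region were not placed on bins, since RefSeq's GRCh38.p14 tables were used only for gene order and promoter sequence. Python 3.11.15, numpy 2.4.6, pandas 2.3.3, scipy 1.17.1 and matplotlib 3.10.9 were used.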

Additional observations from a re-analysis of the deposited data

Results flagged for a closer look

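In 8 windows of the interval and in 1 section, library C exceeded library A in both RPE1 sets while library A exceeded library C in HCT116. The RPE1 sets thus moved one way and HCT116 the other, and the difference was not tested. The values are the library C share minus the library A share, in percentage points, and the difference is HCT116 minus the RPE1 mean.

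In extended class I the RPE1 sets had 3.85 and 14.6 and HCT116 had -17.4, a difference of -26.6. The window from 28500001 to 28600000 differed by -25.2, with 8.59, 17.2 and -12.3. The window from 29000001 to 29100000 differed by -27.1, with 3.75, 25.8 and -12.4, and the RPE1 sets were far apart there. From 29100001 to 29200000 the difference was -45.2, with 43.2, 34.0 and -6.58. The window from 29300001 to 29400000 had the largest difference, -60.4, with 33.4, 40.0 and -23.7. Next to it, from 29400001 to 29500000, the difference was -55.5, with 24.6, 31.5 and -27.5.

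In class II the 3 adjacent windows from 32400001 to 32700000 met the same condition. Their differences were -40.5 (1.84, 9.73 and -34.7), -31.1 (8.43, 12.0 and -20.9) and -29.2 (5.06, 10.2 and -21.6). The last 2 of them are the windows in which the HCT116 read level was also low. Over the genome 11% of windows met the condition.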

How the results depend on the processing

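Of 112 recomputed values, 88 stayed within the RPE1 spread or, for counts, within 1.5 times, and 24 moved. Leaving out 1 of 2 RPE1 sets shifts the RPE1 mean by less than its SD whatever the data. For levels and share differences, and nearly so for contig ratios, such entries were bound to stay. The tally therefore says nothing about how far those values depend on 1 RPE1 set. Among 35 differences in library C share 4 turned sign, all 4 smaller than the RPE1 spread and all with an RPE1 set left out. The replicate error rests on 2 RPE1 sets, and HCT116 has no replicate. With the autosomal median window as reference, the interval was at 0.344 in RPE1 and 0.369 in HCT116, and the sum with the contigs at 1.95 and 2.20. Without empty bins the interval was at 0.330 and 0.393, and with flanks of 2 Mb HCT116 was at 0.320. The count of windows with HCT116 below in library C (9) was 4 of 24 with windows of 200 kb (17.2% of all windows), 4 at 20 points (7.52% of all windows), 2 of 20 with a minimum of 300 reads (17.2% of all windows), 5 on percentiles, 1 for library A, and 9 to 17 with an RPE1 set left out. The count above (0) was 13 for library A, 1 on percentiles, and 0 to 23 with a set left out. Of windows low in level, 1 remained in the interval and 0 in the contigs at 2-fold. The contigs had 2 with the autosomal reference and 2 to 2 with a set left out. Windows high in level went from 9 to 3 at 2-fold and to 10 to 45 with a set left out in the contigs, and to 0 to 8 in the interval. Settings on level counts, percentiles and equal library weights were chosen after seeing the data. With a set left out, differences in library C ran from -19.5 to -16.2 in extended class I, -6.05 to 10.5 in class I, -5.65 to 13.7 in class III, -11.1 to -2.44 in class II, -4.17 to 13.4 in extended class II and -9.58 to 4.00 in the whole interval. No paired analysis was possible because no test was run and no column bears a fraction name.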
